A study of Mus musculus with 53 samples.

Results

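R1 mouse embryonic stem cells with 1 targeted allele of Tbx3 (+/N) were compared with R1 cells carrying intact alleles (+/+), each as 1 bulk RNA library. Of the 11647 rows of the bulk expression table, 11249 genes were compared. They had a level of at least 1 FPKM (fragments scaled to transcript length and to the total of mapped fragments) in either library. Another 18 rows with a number in place of a name, 193 small RNA genes (microRNA, snoRNA and snRNA) and 187 genes below that level were left out. The difference of a gene was the log2 ratio of FPKM + 1, +/N over +/+, after the 7415 genes reaching 5 FPKM in +/+ and in +/N had been centred on a median of 0. That step took off a shift of -0.12. A gene was called higher or lower in +/N where it differed by at least 2-fold on this scale, which understates the fold of genes near 1 FPKM.

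The series addresses Tbx3, Dppa3 and exit from pluripotency, as its title states. Its bulk set also holds R1 cells with both Tbx3 alleles targeted (N/N) and wild-type R1 cells with a hairpin against luciferase (shLuc) or against Tbx3 (shTbx3). R1 cells were grown with serum and leukemia inhibitory factor on no feeder layer, per the labels. The genotype tag writes the heterozygous line as +/- and its title as +/N. Which stretch of Tbx3 was targeted, how the lines were made and whether each is a single clone is not stated there. Since every group is 1 library, no difference below has a replicate check and none carries a p-value.

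Tbx3 belongs to the T-box transcription factors and takes part in the naive pluripotency network and in primitive endoderm. Embryonic stem cells in serum are a mixture of states, and a minority of cells expresses endoderm genes at any time. Interferon-stimulated genes are a set of antiviral genes switched on when a cell senses interferon. Embryonic stem cells are known for a weak interferon response. Fibroblast matrix genes code for the collagens, crosslinking enzymes and proteoglycans that mesenchymal cells secrete.

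Values across libraries are given in the order +/+, +/N, N/N, shLuc and shTbx3. Tbx3 (mm9 chr5:120120678-120134733, plus strand) stood at 44.4, 22.5, 15.1, 13.8 and 5.09 FPKM. The +/N level was 50.7% of +/+, a difference of -0.83 that missed the 2-fold call. Dppa3, a maternal-effect gene also called Stella, stood at 5.32, 8.95, 24.7, 29.1 and 51.3 FPKM. Its +/N level was 168% of +/+ (difference 0.77), the lower of the targeted lines and far below either hairpin library. Of the 12 embryonic stem cell markers, 12 were in the table and 0 were called. Their summed level was 2971 FPKM in +/+ and 2798 FPKM in +/N.

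The allele and hairpin sets stood apart in several whole-library measures. Small RNA genes took 19.5% to 22.5% of all FPKM in the allele libraries and 5.32% to 7.14% in the hairpin libraries. Of the 11647 rows, 0 were at 0 FPKM in +/+, beside 23 in +/N, 26 in N/N, 179 in shLuc and 165 in shTbx3. Genes at 0 in +/+ thus have no row and could not be called higher in +/N. How the rows were chosen is not given. Inside the allele set the +/+ library also stood apart, with the ribosomal RNA precursor Rn45s at 494 FPKM, beside 1336 in +/N and 1768 in N/N. Malat1, a nuclear noncoding RNA, was at 17.5, 52.5 and 53.2 FPKM in the same order. The part of RNA isolation or library preparation in the results below was not tested. Median differences by transcript length were -0.02, -0.01 and 0.02 from the shortest to the longest group of genes.

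Between +/N and +/+, 76 genes (0.676% of 11249) were at least 2-fold higher in +/N and 64 genes (0.569%) were at least 2-fold lower, 140 genes or 1.24% in all. With no shift taken off, 54 were higher and 81 lower. With the median of ribosomal protein and housekeeping genes set to 0, 49 were higher and 97 lower, so the split between directions depends on the scaling. The middle 95% of genes lay between -0.59 and 0.66, and the median over all genes was 0.02. The calls were spread over expression levels, taken from whichever library was higher. They ran from 0.751% of the genes at 1 to 5 FPKM to 2.23% of those at 100 FPKM or more. At the edge of the call, Snhg8 and Nlrp4a (both 1.00) were just inside on the high side and 2810055F11Rik (0.98) and Tmem53 (0.97) just outside. On the low side Basp1 and Parp14 (both -1.0) were just inside, with Atp2a3 and Ube2l6 just outside at values that also round to -1.0.

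**Figure D1:**
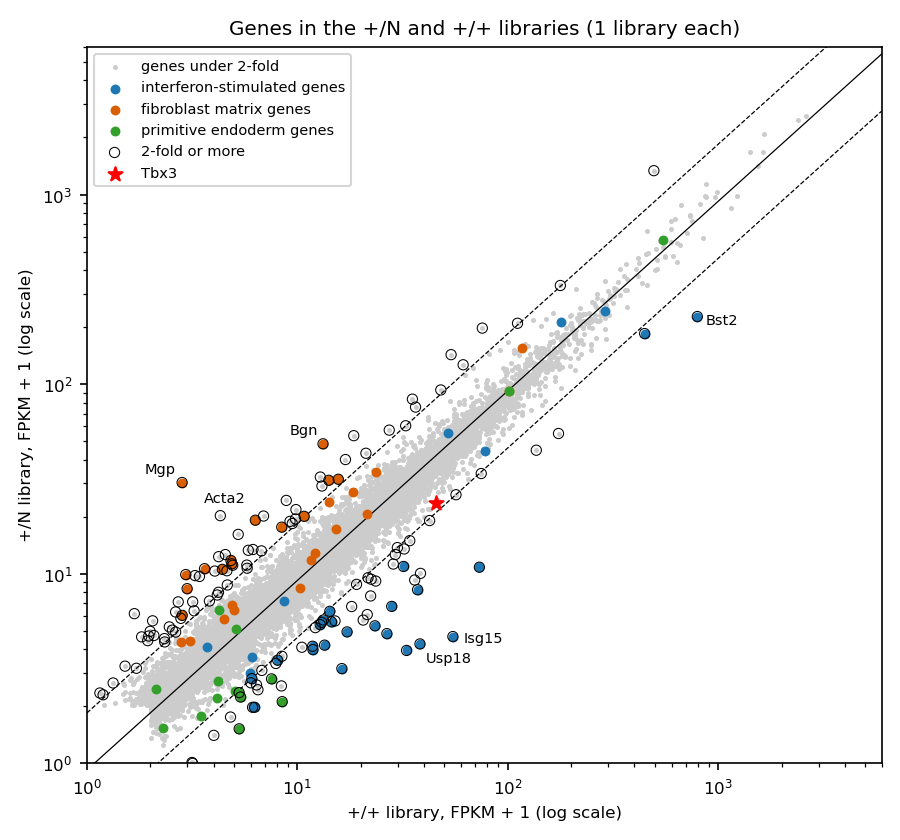
Level of each gene in the +/+ library (x axis) and the +/N library (y axis), both as FPKM + 1 on log axes, 1 library each. The solid line is the median shift of -0.12, the dashed lines are 2-fold from it, circles mark the 140 genes at or past them, and colours mark 3 gene lists. Interferon-stimulated genes lie below the lower dashed line at many levels, up to Bst2 at 795 FPKM in +/+, while Mgp and Bgn lie above the upper one.

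Of the 41 gene lists, the interferon-stimulated genes held the most lower genes. Of 50 listed, 32 were in the table and counted, and 24 of these were at least 2-fold lower in +/N, with 0 higher, a median difference of -1.41 and a range of -3.44 to 0.36. Beside them, 0.569% of all genes were lower at a median of 0.02. The list was written with earlier results of these data known, so its count describes these libraries and is no independent evidence. Bulk RNA cannot tell fewer cells of a kind from less RNA in each cell.

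Isg15, a ubiquitin-like protein that is attached to other proteins, had the lowest difference of all genes counted. It stood at 53.9, 3.66, 4.33, 0.526 and 9.10 FPKM (difference -3.44, a 14.7-fold ratio of +/+ to +/N before the shift was taken off). Usp18, the protease that removes Isg15 and dampens the interferon receptor, stood at 37.3, 3.27, 2.66, 0.0814 and 0.615 FPKM (-3.05). Irf7, the transcription factor that amplifies interferon production, stood at 32, 2.94, 2.89, 0.510 and 0.218 FPKM (-2.95). In all of these the +/+ library was the highest of the 5, the +/N and N/N libraries lay close to each other, and the hairpin pair, which includes the wild-type shLuc cells, was low as well except for Isg15 in shTbx3.

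Irgm1, an immunity-related GTPase, stood at 72.3, 9.83, 8.20, 1.37 and 8.37 FPKM (-2.64). Bst2, the tetherin that holds budding virus at the cell surface, was the most abundant of the lower genes, at 795, 226, 269, 111 and 172 FPKM (-1.69). Ifitm3, which blocks virus entry, stood at 446, 184, 200.4, 88.0 and 221 FPKM (-1.16). Again the +/+ library was above the other 4 for each gene. Across the list +/+ was the highest of the 5 libraries for 28 of 32 genes, beside 16.6% of all genes counted. For the 24 called lower, the call itself puts +/+ above +/N. The count is thus partly fixed by the call and is no separate evidence.

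The oligoadenylate synthetases and their Oasl relatives are antiviral proteins, and 5 of the 7 counted were called lower. Differences were -2.25 for Oasl1, -2.02 for Oasl2, -1.94 for Oas2, -1.56 for Oas1a and -1.55 for Oas1g, while Oas1c (-0.87) and Oas3 (-0.63) missed the call. Oas2 stood at 27.1, 5.73, 4.18, 1.13 and 0.722 FPKM. The Oas1 genes are near-identical copies, and how reads were divided among them is not given, so their separate values are uncertain.

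Other lower members cover different steps of virus defence. They were Rtp4 (25.6 FPKM in +/+ and 3.83 in +/N, difference -2.34), Xaf1, a proapoptotic partner of XIAP (36.3 and 7.24, -2.06), Lgals3bp (-1.69), the GTPases Gbp3 (-1.52) and Igtp (-1.39), and Ifi27l2a (-1.46). The ADP-ribosyltransferases Parp12 (-1.43), Parp9 (-1.27) and Parp14 (-1.0) were lower along with Dtx3l (-1.13), the ubiquitin ligase that pairs with Parp9. So were Eif2ak2, the kinase that stops translation on double-stranded RNA (-1.10), Ddx60 (-1.09) and Zbp1, a sensor of Z-form nucleic acid (-1.05). The 8 members not called ran from Oas1c through Trim25 (-0.68), Oas3, Ifi35 (-0.16), Ifitm2 (-0.12), Pml (0.20) and Gbp2 (0.26) to Ifitm1 (0.36).

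**Figure D2:**
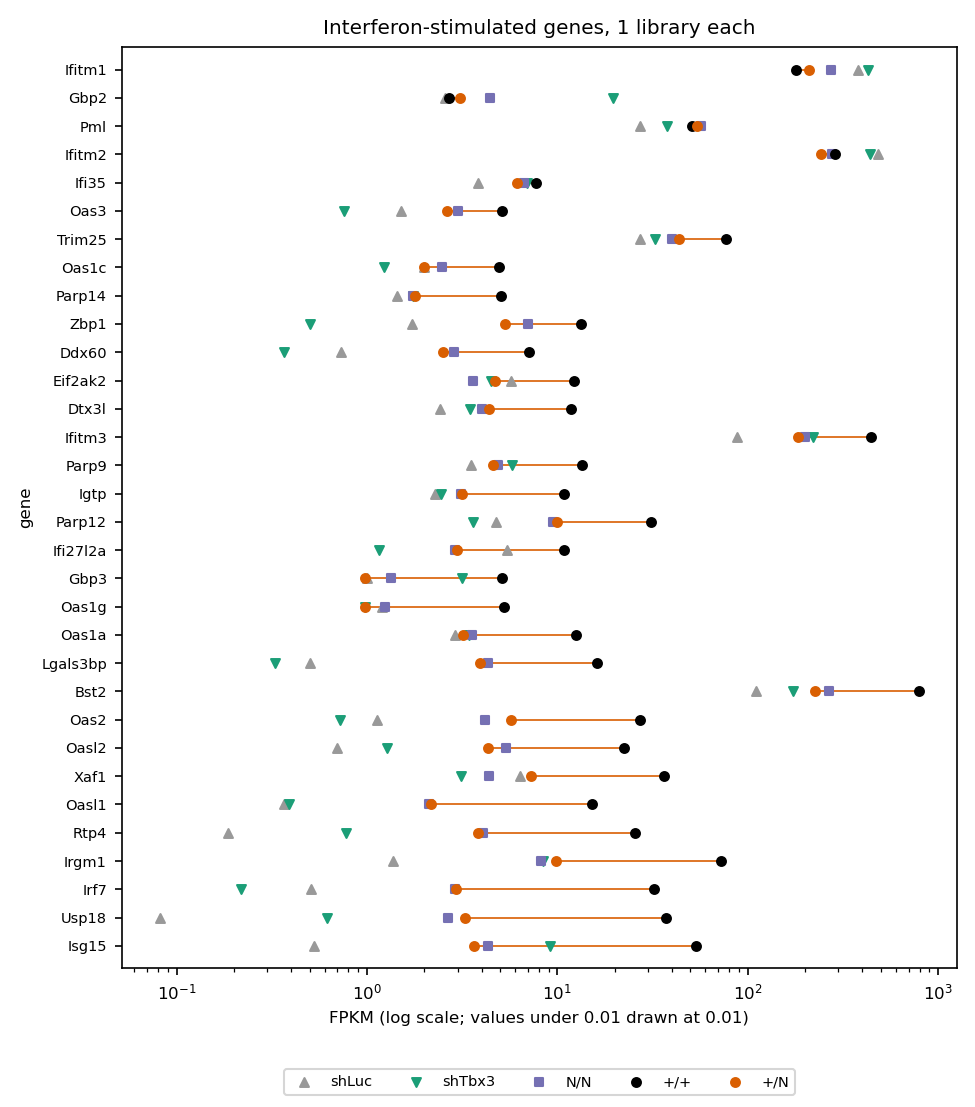
Level of each of the 32 interferon-stimulated genes (y axis, ordered by difference) in the 5 bulk libraries on a log FPKM axis, 1 library each, with a line joining +/+ and +/N. The black +/+ point is the rightmost for 28 of 32 genes, and the orange +/N point lies close to the N/N square.

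Promoters of the list were searched for GAAA followed by any 2 bases and GAAA, on both strands, overlapping matches included, because a pair of such GAAA repeats forms the core that Irf proteins are known to read. RefSeq promoters on GRCm38.p6, taken from 250 bases before the gene start up to the start, held it in 978 of 32851 cases (2.98%), and in 232 of the 8033 counted genes with a promoter in the table (2.89%). Of the 25 interferon-stimulated genes with a promoter there, 12 (48.0%) held it, against 1 of 51 genes 2-fold higher in +/N (1.96%) and 12 of 43 that were 2-fold lower (27.9%). None of the 19 fibroblast matrix promoters did. The lower set and the interferon-stimulated list share genes, among them Isg15, Irgm1 and Bst2, so their shares are not separate evidence. The genes of the lines below were chosen to show the motif across the range of differences. Socs1, from the signalling list, was added to members of the interferon-stimulated list. Capitals mark the motif, and each sequence is written 5′ to 3′ on the strand of its gene. Socs1, Gbp2 and Ifitm2 hold the motif without a 2-fold difference. The reference strain is not the strain R1 came from.

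Isg15, chr4:156200845-156200926, minus strand: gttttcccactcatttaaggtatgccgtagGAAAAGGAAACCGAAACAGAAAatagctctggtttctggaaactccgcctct
Irgm1, chr11:48871421-48871480, minus strand: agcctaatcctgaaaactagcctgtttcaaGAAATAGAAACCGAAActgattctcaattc
Bst2, chr8:71537557-71537632, minus strand: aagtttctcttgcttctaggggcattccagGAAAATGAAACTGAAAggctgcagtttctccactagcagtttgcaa
Oas1a, chr5:120907526-120907575, minus strand: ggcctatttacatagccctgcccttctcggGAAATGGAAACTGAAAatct
Gbp3, chr3:142559969-142560043, plus strand: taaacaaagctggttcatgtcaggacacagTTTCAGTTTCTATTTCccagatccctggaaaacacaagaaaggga
Igtp, chr11:58199492-58199555, plus strand: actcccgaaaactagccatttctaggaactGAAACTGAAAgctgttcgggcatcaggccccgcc
Ddx60, chr8:61928004-61928086, plus strand: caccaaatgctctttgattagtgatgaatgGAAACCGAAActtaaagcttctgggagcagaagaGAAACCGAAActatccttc
Socs1, chr16:10785574-10785649, minus strand: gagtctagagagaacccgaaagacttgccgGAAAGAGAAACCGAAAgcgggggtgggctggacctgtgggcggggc
Gbp2, chr3:142620574-142620643, plus strand: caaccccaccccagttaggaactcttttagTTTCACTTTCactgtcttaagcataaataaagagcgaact
Ifitm2, chr7:140955968-140956037, minus strand: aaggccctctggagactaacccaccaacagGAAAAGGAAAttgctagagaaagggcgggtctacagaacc

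Isg15, with the lowest difference, has 3 overlapping matches, and Irgm1, Bst2, Oas1a, Gbp3, Ddx60 and Socs1 have 2 each. Igtp has 1 match, as do Gbp2 (difference 0.26) and Ifitm2 (-0.12). Oas1c and Oas3 hold the motif too and missed the 2-fold call. Irf7, Oasl1, Oasl2, Xaf1, Lgals3bp, Parp12, Ifitm3, Dtx3l and Eif2ak2 were lower without these letters in the window, which says nothing about sites elsewhere. Trim25, Ifi35, Ifitm1 and Pml had neither the letters nor a 2-fold difference. The motif was thus present in some and absent from others, among called and uncalled members alike. A match is a description of the reference sequence, not a site shown to be used in these cells.

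The sensors and signalling proteins of the pathway had a median nearer to 0 than its targets. Over the 19 counted the median was -0.10, and none was called higher. Ddx58 (RIG-I), a sensor of viral RNA, stood at 20.7, 8.53, 9.78, 5.47 and 6.76 FPKM (-1.07). The +/+ library was again the highest of the 5. Irf9 (-0.91), Socs1, the feedback inhibitor of Jak kinases (-0.91), and Adar (-0.78) lay below 0 without passing 2-fold. The receptors and kinases had differences near the centre: Ifnar1 0.18, Ifnar2 -0.27, Jak1 0.10, Tyk2 0.17, Stat2 -0.22, Irf3 -0.22 and Mavs 0.04.

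In the antigen presentation pathway of MHC class I, 2 of 14 counted genes were called lower, beside 0.569% of all genes. In the higher direction 0 were called, and the median was -0.25. H2-D1 stood at 22.6, 8.15, 7.30, 19 and 15.7 FPKM (-1.25) and H2-K1 at 31.2, 12.5, 12.9, 41.8 and 37.9 FPKM (-1.14). Here the hairpin libraries did not share the low level: for H2-K1 both were above +/+, and for H2-D1 both lay between +/+ and +/N. These class I heavy chain genes are close copies, so their values are uncertain. The immunoproteasome subunit Psmb9 (-0.86), the loading factor Tapbp (-0.46) and the light chain B2m (-0.21) were not called. All 14 lay below 0, except that with each chromosome's own median set to 0, a step chosen after seeing the data, Psmb10 (0.12) and Calr (0.26) lay above it.

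Fibroblast matrix genes held the most higher genes of the 41 lists. Of 38 listed, 29 were counted; 14 were at least 2-fold higher in +/N and 0 lower, with a median of 0.87 and a range of -0.16 to 3.53. The background is 0.676% of all genes higher. Mgp, an extracellular inhibitor of calcification, had the largest positive difference of any gene counted (3.53). It stood at 1.84, 29.3 and 18.4 FPKM in the allele libraries and was listed at 0 in both hairpin libraries. Bgn, the proteoglycan biglycan, stood at 12.2, 47.5, 41.6, 0.524 and 1.3 FPKM (1.99). Lox, which crosslinks collagen, stood at 1.95, 8.90 and 11.6 FPKM in the allele set and at 0 and 0.0494 in the hairpin pair (1.86).

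The other called members were collagens and the proteins around them. Col6a2 stood at 2.0, 7.35, 6.10, 0.0901 and 0.415 FPKM (1.6) and Col6a1 at 3.84, 10.8, 8.81, 0.0253 and 0.274 FPKM (1.40). The fibrillar collagen chains Col1a2 (7.43 FPKM in +/+ and 16.6 in +/N, 1.18) and Col1a1 (14.7 and 30.5, 1.13) were higher too. S100a4 (1.72), periostin Postn (1.67), the metalloprotease inhibitor Timp2 (1.38), Serpinf1 (1.33), Fbln2 (1.26), Thbs2 (1.21) and tenascin Tnc (1.02) completed the set. Fn1, the most abundant at 116 and 154 FPKM, differed by 0.52, and Sparc (-0.02), Mmp2 (0.15) and Mmp14 (-0.16) lay near 0. The order of libraries was thus targeted lines above +/+, with the hairpin pair lowest: both hairpin libraries lay below all 3 allele libraries for 24 of 29 genes, beside 19.3% of all genes counted.

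**Figure D3:**
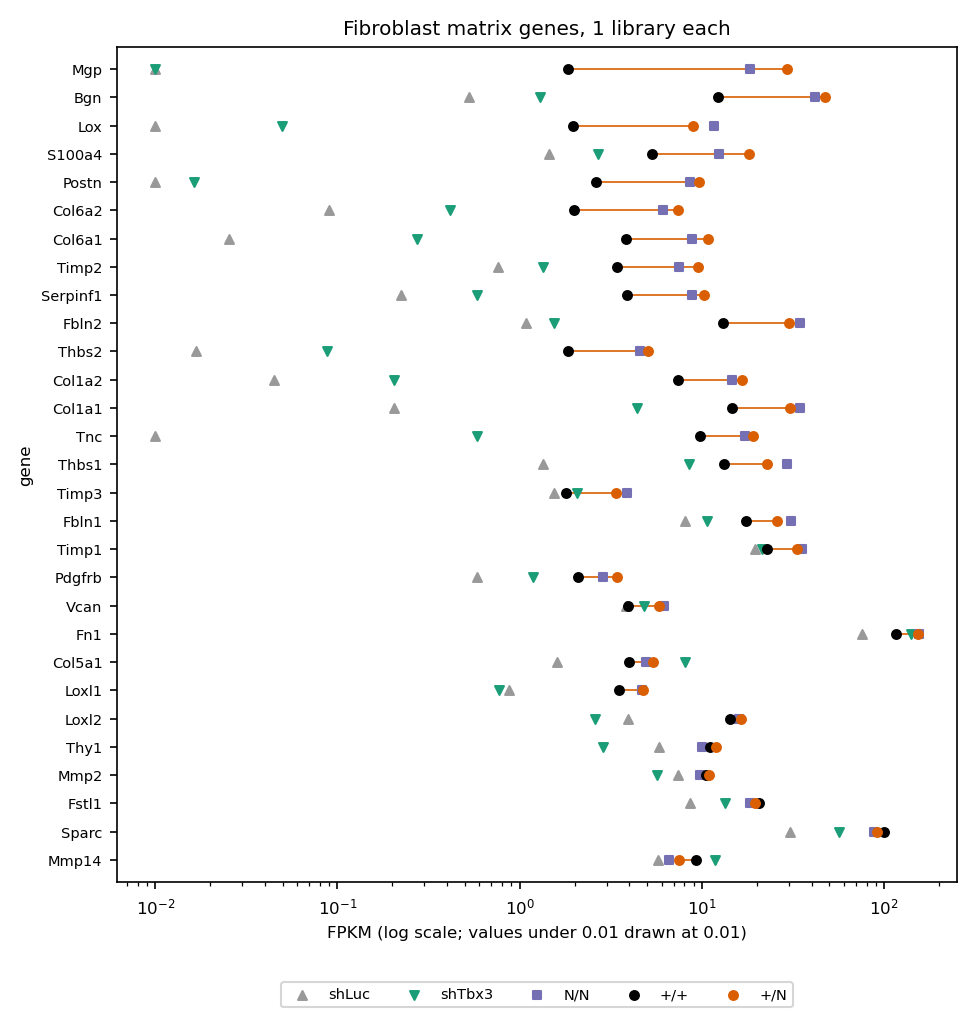
Level of each of the 29 fibroblast matrix genes (y axis, ordered by difference) in the 5 bulk libraries on a log FPKM axis, 1 library each, with values under 0.01 FPKM drawn at 0.01 and a line joining +/+ and +/N. The +/N and N/N points lie together to the right of +/+ for the upper rows, and both hairpin points lie to the left of all 3 for 24 of 29 genes.

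Markers of fibroblasts were measured beside this result, as the labels say that no feeders were used. Of 12 fibroblast markers, 6 were in the table (Col1a1, Col1a2, Postn, Thy1, Pdgfrb and Twist1). Col3a1, Col6a3, Dcn, Fbn1, Lum and Prrx1 were not among the rows of the table. The 3 called higher, Col1a1, Col1a2 and Postn, are also among the 14 called matrix genes above, so they are no separate evidence. The summed level of the 6 markers was 43.2, 76.4, 74.2, 7.66 and 10.8 FPKM. Pdgfrb (0.63) was not called. Twist1 had no difference in that direction (5.21 FPKM in +/+ and 4.39 in +/N, -0.09), nor did Thy1 beyond 0.20. The part of fibroblast cells in the result was not tested.

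Genes of the contractile cytoskeleton were mostly level. Of 26 counted, 2 were called higher and 0 lower, with a median of 0.08 that became -0.04 with no shift taken off and -0.08 relative to ribosomal protein and housekeeping genes. Acta2, smooth muscle actin, stood at 3.31, 19.3, 28.1, 0.688 and 7.89 FPKM (2.35). Tagln, an actin-binding protein of smooth muscle, stood at 7.86, 23.4, 31.6, 13.7 and 106 FPKM (1.58). Both were lowest in a wild-type library, shLuc for Acta2 and +/+ for Tagln, and Tagln was highest in shTbx3. The other genes of the list included Vim (0.85), Acta1 (0.72), Myl9 (0.43), Cnn1 (0.28), Myh9 (0.14) and Vcl (-0.16).

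Cav1, the coat protein of caveolae, was the 1 called gene of 5 on the caveola list, at 0.681, 5.16, 4.52, 0 and 1.44 FPKM (1.99). Its partners Ehd2 (0.45), Pacsin3 (-0.28) and Ptrf (-0.23) were not called. Among 15 targets of TGF-beta and Hippo-YAP signalling, Inhbb, the inhibin beta-B chain, was lower (11.2, 4.20, 2.96, 7.39 and 2.18 FPKM; -1.11). The abundant YAP targets Ctgf (104 and 118 FPKM, 0.30) and Cyr61 (71.8 and 72.1, 0.12) were not called. In the S100, annexin and galectin list of 19 genes, whose median was 0.40, S100a4, Anxa1 (1.3) and S100a11 (1.26) were higher. Lgals9 stood at 37.5, 9.05, 17.2, 3.62 and 3.64 FPKM (-1.82), and Lgals2 was at 2.18 FPKM in +/+ and listed at 0 in +/N.

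Primitive endoderm genes were lower in +/N by their median, -0.79 over 15 counted genes. Among them 5 were called lower and 0 higher, beside 0.569% of all genes lower. Most of these genes are weakly expressed in +/+, and among those at 5 FPKM or more in either library the median was -0.02. The list median thus rests on genes below that level, although the called genes Amn and Srgn were above 5 FPKM in +/+. Amn and Cubn, which together form a receptor for vitamin uptake, stood at 7.48, 1.12, 1.39, 1.06 and 1.27 FPKM (-1.88) and at 4.30, 0.522, 0.0614, 0.348 and 0.0625 FPKM (-1.68). The endocytic receptor Lrp2 (-1.05), the adaptor Dab2 (-1.15) and the proteoglycan Srgn (-1.32) were also called. For Amn and Cubn the +/+ library stood alone above 4 low ones. Across the list +/+ was the highest of 5 for 10 of 15 genes, a count partly fixed by the calls.

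Several transcription factors of the list differed in the same direction without passing 2-fold. Gata4 stood at 4.06 FPKM in +/+ and 1.41 in +/N (-0.95), Gata6 at 3.14 and 1.21 (-0.79) and Sox17 at 1.31 and 0.530 (-0.48). Pdgfra (0.33), Hhex (0.12), Apoe (0.19) and Snai1 (0.71) lay above 0, and of these Hhex and Snai1 are transcription factors too. The summed level of 10 endoderm markers was 86.5, 23.8, 13.1, 23.7 and 27.8 FPKM, and Foxa2 and Sox7 were not among the rows of the table. Much of that sum in +/+ came from Col4a1 (35.1 FPKM) and Lama1 (21.3 FPKM), which are described again with the basement membrane below.

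A few chains of the basement membrane, which primitive endoderm secretes in large amounts, were lower: Col4a1 at 35.1, 8.27, 3.75, 7.58 and 6.77 FPKM (-1.84), Col4a2 at 20.5, 5.09, 2.73, 2.63 and 3.44 FPKM (-1.70), and laminin Lama1 at 21.3, 6.64, 3.40, 9.43 and 13.5 FPKM (-1.43). In each the +/+ library was highest and N/N or a hairpin library lowest. The remaining 12 of 15 counted genes, among them Lamb1 (-0.04), Lamc1 (-0.38), Nid1 (0.29), Nid2 (0.10) and Lama5 (0.63), were not called, and the list median was -0.12.

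The core pluripotency factors had a median near 0, while 18 of 27 naive genes lay below 0 and 9 above it. Of 13 core factors 0 were called, beside 1.24% of all genes. Their median of 0.09 became -0.02 with no shift taken off. Pou5f1 (Oct4) stood at 659.9 FPKM in +/+ and 540.4 in +/N (-0.17), Sox2 at 245 and 213 (-0.08) and Nanog at 71.6 and 70.4 (0.09). Zfp42 (Rex1) had the largest difference of the list (196 and 124 FPKM, -0.55). Among 27 naive genes 1 was called, Mras, a Ras-family GTPase (7.45, 2.67, 1.40, 5.51 and 10.1 FPKM; -1.08), and the median was -0.09. Klf4 (88.9 and 49.5 FPKM, -0.71) and Klf5 (101 and 57.8, -0.67) lay below 0, and Esrrb (-0.12), Tfcp2l1 (0.32) and Klf2 (-0.27) nearer to it.

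Of 18 formative and primed genes counted, 0 passed 2-fold, with Pou3f1 (20.8 and 9.57 FPKM, -0.93), Sox3 (-0.68), Otx2 (0.47) and Grhl2 (0.63) at the ends of the range. Of 19 primitive streak and mesoderm genes, 4 were counted and 0 called; T (Brachyury) was at 0.0658 FPKM in +/+ and 0.438 in +/N, below the minimum level. In the Wnt list Sfrp1, a secreted Wnt antagonist, was lower (27.6, 10.3, 6.87, 9.35 and 7.15 FPKM; -1.23), while the Wnt target Axin2 differed by -0.01.

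Imprinted genes had a median of 0.26 over 30 counted, with 4 called higher, beside 0.676% of all genes, and 0 lower. Relative to ribosomal protein and housekeeping genes the median was 0.10. Igf2, a fetal growth factor, stood at 4.24, 15.1, 16.4, 0.871 and 13 FPKM (1.74). H19, the noncoding RNA from the neighbouring and oppositely imprinted locus, stood at 34.2, 82.4, 116, 10.9 and 31.1 FPKM (1.36). The pair thus had the same order among the allele libraries and was lowest in shLuc. Dlk1 (0.968 and 3.70 FPKM, 1.37) and Sgce (3.22 and 6.99, 1.04) were the other called members, and Peg10 (0.94), Mest (0.85), Meg3 (0.83) and Impact (0.75) lay below the call.

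Stress genes contributed a few calls each, where 0.676% of all genes were called higher. Ddit3 (CHOP), a factor induced by the integrated stress response, stood at 11.9, 31.4, 45.1, 9.75 and 9.11 FPKM (1.45). Nupr1 (1.24) and Ddit4, an inhibitor of mTOR signalling (110.3 and 208 FPKM, 1.03), were higher as well, whereas the amino acid genes Asns (-0.12), Trib3 (0.10) and Psat1 (0.23) of the same 27-gene list were not. From the 28 genes of the glycolysis and hypoxia list 2 were called, the vasodilator peptide Adm (3.05, 9.34, 9.19, 0.869 and 0.739 FPKM; 1.47) and Ndrg1 (1.15). The hypoxia targets Vegfa (0.22), Slc2a1 (-0.05) and Egln3 (-0.26) were not. Among 79 cytosolic ribosomal protein genes only Rpl39 was called (1.5), and 0 of 31 cell cycle genes, 0 of 79 respiratory chain genes and 0 of 18 housekeeping genes were.

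**Figure D4:**
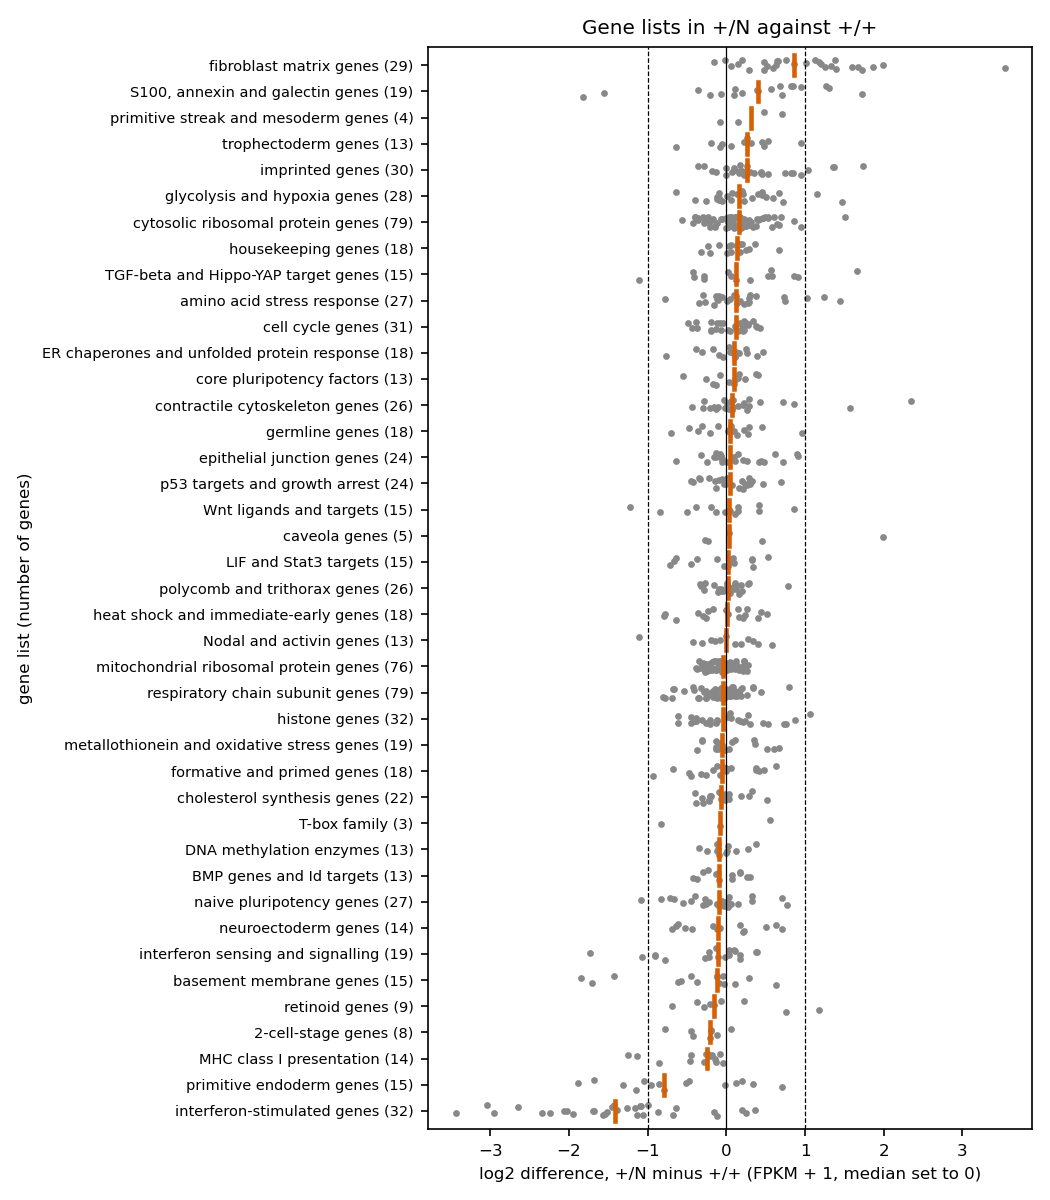
Difference of each member of the 41 gene lists (grey points), log2 of FPKM + 1 in +/N minus +/+ with the overall median set to 0, with list medians as orange bars, the number of counted genes in brackets and dashed lines at 2-fold. The interferon-stimulated and primitive endoderm lists have the lowest medians (-1.41 and -0.79), the fibroblast matrix list the highest (0.87), and most other lists lie around 0.

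Of the 140 called genes 67 were in none of the lists, and a few of them are given here, chosen after their values were seen. Tcf15, a transcription factor of primed and mesodermal cells, stood at 136, 43.8, 34.5, 49.4 and 83.2 FPKM (-1.49). Ifi27l1, a relative of the interferon-induced Ifi27 genes, stood at 173, 53.9, 48.4, 0.286 and 0.340 FPKM (-1.55). Gap junction protein Gja1 was higher, at 26.3, 56.2, 57.3, 21.3 and 43.9 FPKM (1.18), as was Grem1, a secreted BMP antagonist (1.72, 6.11, 3.86, 0 and 0.151 FPKM; 1.5). Rn45s and Malat1 were among the called genes too, with differences of 1.55 and 1.65.

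Genes of chromosome 8 lay lower in +/N as a whole. The median difference of its 433 genes that reached 5 FPKM on each side was -0.31, with 394 (91.0%) below 0, while the medians of the other chromosomes ran from -0.05 to 0.10 and 47.4% of their 6913 genes lay below 0. The value was negative in every 20-Mb segment of the chromosome, from -0.23 to -0.39, so no single segment carried it. In N/N against +/+, which shares the +/+ library, the median was -0.24. Set against shLuc, a comparison across the sets, the chromosome 8 medians were 0.05 for +/+, -0.26 for +/N and -0.16 for N/N. The median of N/N minus +/N was 0.07 and that of shTbx3 minus shLuc -0.05.

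**Figure D5:**
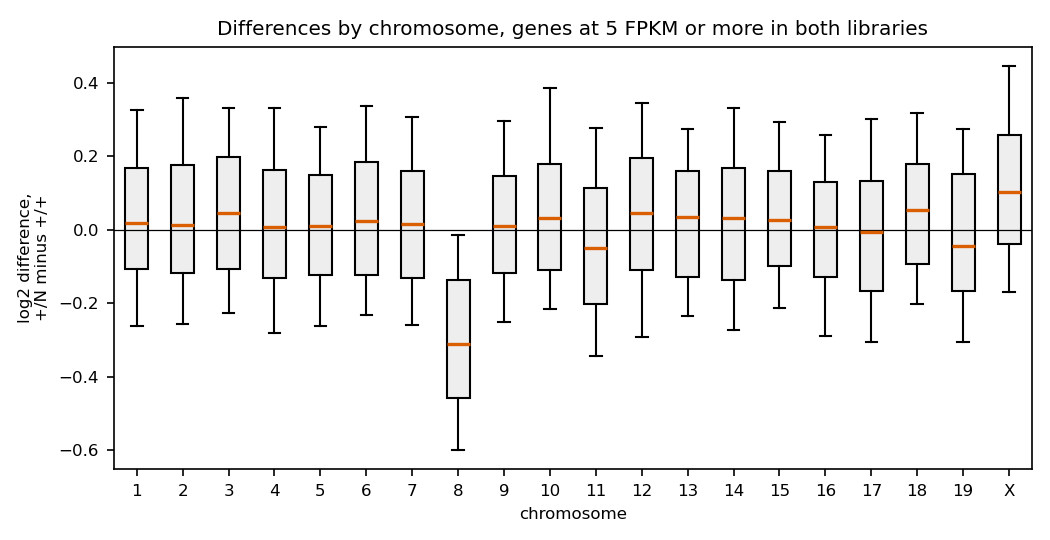
Differences between +/N and +/+ by chromosome, for genes reaching 5 FPKM on each side, as medians (orange), quartiles (boxes) and the 10th to 90th percentiles (whiskers). The box of chromosome 8 lies wholly below 0, around a median of -0.31, and those of all other chromosomes include 0.

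This shift of chromosome 8, noticed after the values were seen, touches several genes named above. Of its 614 counted genes 9 were called lower and 0 higher, beside 0.569% of all genes lower and 0.676% higher. Relative to the chromosome 8 median, Col4a1 (-1.53), Col4a2 (-1.39), Bst2 (-1.38), Pou4f2 (-1.09) and Kbtbd11 (-1.0) were still 2-fold lower. Sfrp1 (-0.92), Ddx60 (-0.78), Kifc3 (-0.78) and Ssbp4 (-0.72) were not, and Acta1 became higher (1.03). Zfp42, the core factor with the largest difference, lies on this chromosome and came to -0.24. Without chromosome 8 the counts over all genes were 76 higher and 55 lower.

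Around Tbx3 itself, on chromosome 5, no such shift was seen. The 31 counted genes within 2 Mb of Tbx3 had a median difference of -0.06 and a range of -1.94 to 0.30, and 3 were called. All 3 belong to the Oas cluster (Oas2, Oas1g and Oas1a), which lies in that window. Without the 5 Oas genes the other 26 ran from -0.48 to 0.30 with 0 called. Rbm19, the nearest counted gene downstream, differed by -0.37 and Med13l, the nearest upstream, by 0.21.

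Sites bound by Tbx3 were taken from the authors' deposited list of 3078 mm9 peaks, which come from N/N cells that carry the BirA ligase and a biotin-tagged Tbx3 captured on streptavidin. A site lay within 20 kb of the start of 1668 of 11102 counted genes with a position (15%, exact Clopper-Pearson 95% interval 14.4% to 15.7%). Of 71 genes higher in +/N, 15 had one (21.1%, 12.3% to 32.4%), and of 63 lower genes 5 had one (7.94%, 2.63% to 17.6%). Both intervals include the share of all genes. They cover counting error only, and genes near each other can share a site.

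The lower genes with a site were Ddx58, Ddx60, Oas1a, Oas1g and Ssbp4, and 4 of the 5 belong to the interferon lists. Of all 64 lower genes, 28 belong to the interferon and MHC class I lists. The neighbours Oas1a and Oas1g have 2 sites each within 20 kb and may share them, so they are not separate cases. The site near Oas1g lay at chr5:121338371-121338815, 749 bases upstream of the start, with a score of 53, and that of Ddx60 at chr8:64405806-64406183, 701 bases upstream, with 59.7. Scores are the authors' own and began at about 50, so both are weak peaks of this list. The score of the nearest site ran from 53 to 69.1 for the 5 lower genes. For the 15 higher genes it ran from 50.5 (Malat1) to 286 (Gm6792). Some of these genes have a further site within 20 kb. Counting every site, 1 of the 63 lower genes had a site from the higher-scoring part of the list within 20 kb. Among the higher genes named above, sites lay near Gja1 at chr10:56093895-56094474, 2632 bases upstream (score 232), Thbs2 at chr17:14830095-14830612, 657 bases downstream of the start (182), and Ddit4 at chr10:59420487-59421123, 5969 bases upstream (176). Isg15, Usp18, Irf7, Mgp and Acta2, which were among the genes with the largest differences, had none within 20 kb. The T-box core GGTGTGA, searched on both strands, occurred in 13.5% of all sites and in 3.37% of the 250-base promoters of counted genes. Sites were searched over their whole length, and the nearest sites of the called genes were all longer than 250 bases. These shares therefore cannot be set against each other.

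Wild-type R1 cells sorted for the surface antigen SSEA1 were measured in a separate table, scaled on its own, so levels cannot be set against the bulk libraries. In its pool of sorted cells Usp18, Irf7 and Rtp4 were listed at 0, Isg15 was at 1.13 FPKM and Bst2 at 124 FPKM. Lox, Postn and Cav1 were listed at 0 and Mgp was at 0.319 FPKM. The 32 interferon-stimulated genes had a median of 2.25 FPKM and the 29 matrix genes of 1.75 FPKM, beside 14 FPKM for all counted genes and 287 FPKM for the core factors. In this other culture of wild-type cells, 4 of the 32 and 3 of the 29 were listed at 0, beside 26 of the 11105 counted genes in that table.

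Among the 45 single cells of that table, Isg15, Usp18, Irf7, Mgp and Lox reached 1 FPKM in 0 cells each (exact Clopper-Pearson 95% interval 0% to 7.87%). Detection was incomplete, since Pou5f1 reached 1 FPKM in 11 of 45 cells (24.4%, 12.9% to 39.5%) and Bst2 in 0 cells in spite of its level in the pool. Tbx3 reached it in 13 cells (28.9%, 16.4% to 44.3%) and Klf4 in 26 (57.8%, 42.2% to 72.3%). An absence from these cells is therefore no evidence on the level of a gene. The intervals cover counting error only.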

How the data were processed

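Bulk RNA of 5 R1 populations, 1 library each, was sequenced from total RNA in 26 bp or 100 bp single reads (per the labels' protocols). The length per library and the depth are not given in the sources used here. Per the submitters' processing notes, the authors made bulk FPKM on mm9 with Cufflinks and Cuffdiff after TopHat, and single-cell FPKM with Cuffnorm. FPKM is scaled to each library's total, so a gene taking a larger share lowers all others. Tbx3 sites keep the score the authors deposited, whose tool is not given: peak names carry MACS, and the processing notes name HOMER and Bowtie 1.0.

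Differences were log2(FPKM + 1), +/N minus +/+, for genes reaching 1 FPKM in at least 1 of the pair, centred on genes reaching 5 FPKM in both. Small RNAs were left out by name and RefSeq biotype. With 1 library per group no test was run: lists are given by counts and medians. Named genes were Tbx3, Dppa3, the 15 largest differences each way at 5 FPKM or more without predicted models, up to 4 per list, and described interferon, core and housekeeping members; others named among lists are list members given for range. The members and the 41 lists were chosen with earlier results of these data known. Site distances used the annotation of the mm9 build, promoters RefSeq on GRCm38.p6. Python 3.11.15, pandas 2.3.3, NumPy 2.4.6, SciPy 1.17.1 and matplotlib 3.10.9 were used, and the calculation was tested on simulated data. Alternatives changed the pseudocount (0.1 and 5), fold (1.5 and 4), filters, centring and site window (5 and 50 kb). Those on chromosome 8, each chromosome's median and left-out lists were chosen after seeing the data. Some members of the lists are not reported here.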

Additional observations from a re-analysis of the deposited data

How the results depend on the processing

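None of the 57 named genes called changed direction under the alternatives that counted them. The counts of higher and lower genes (76 and 64) became 146 and 111 with a pseudocount of 0.1 FPKM, 25 and 21 with 5 FPKM, 393 and 286 at 1.5-fold, 2 and 8 at 4-fold, and 49 and 97 with the median of ribosomal protein and housekeeping genes set to 0. Keeping small RNA and numeric names gave 118 lower, and leaving out the interferon-stimulated genes 40 lower. The remaining alternatives for these counts stayed within 1.5 times. The primitive endoderm median became -0.02 among genes at 5 FPKM or more, where fewer members were counted. Over 11 alternatives the interferon-stimulated median ran from -1.57 to -0.86 and the fibroblast matrix median from 0.65 to 1.07. Of the 57 named genes called, 57 stayed at 2-fold with a pseudocount of 0.1 FPKM, 32 with 5 FPKM, 52 with no centring and 51 with ribosomal protein and housekeeping genes as reference. Up to 17 of 41 lists changed sign under another centring, all with a median within 0.25 of 0.

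The share of all genes with a Tbx3 site was 7.52% within 5 kb, 26.6% within 50 kb and 7.55% for the higher-scoring sites. For higher genes these shares were 11.3%, 32.4% and 14.1%, and for lower genes 4.76%, 22.2% and 1.59%. No paired analysis was possible because each group has 1 library. The depth is unknown, so no counting error can be given for a bulk value.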
